A study of Homo sapiens with 12 samples.

Results

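The genes described here are 10 core genes of the integrated stress response (ISR), chosen by symbol from the 28008 genes of each deposited count table: ATF4, ATF5, ATF3, DDIT3 (which encodes CHOP), TRIB3, PPP1R15A (which encodes GADD34), CHAC1, ASNS, SESN2 and DDIT4. All 10 had a row in both tables and all 10 passed the filter on low counts in both lines. RNA-seq had been performed on a pair of established human lines from pancreatic neuroendocrine tumors (pNETs), QGP-1 and BON-1, that both carry tet-MUC1shRNA, a hairpin against MUC1 that doxycycline (DOX) switches on. In each line 3 cultures received 0.1% DMSO as vehicle and 3 received 500 ng/mL DOX, and RNA was taken after 7 days, which gave 4 groups and 12 libraries. No library carried a control hairpin with DOX, so MUC1 silencing and DOX itself cannot be told apart in any comparison below. The labels do not say whether a line was a pool or 1 clone, and p-values measure only the spread between these libraries.

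The ISR couples stress to gene expression. The kinases PERK, GCN2, PKR and HRI phosphorylate the initiation factor eIF2, which lowers general translation while upstream reading frames allow ATF4 mRNA to be translated more. ATF4 protein then activates genes for amino acid supply, redox control and feedback, together with CHOP, ATF3 and ATF5. Since ATF4 is controlled largely at translation, its mRNA is not a readout of eIF2 phosphorylation or of ATF4 protein, and neither was measured in these libraries. In secretory cells such as those of the endocrine pancreas, the pathway is best known for its PERK branch, which responds to protein folding load in the endoplasmic reticulum (ER).

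The short stretches below come from the RefSeq promoter table (GRCh38.p14, written 5′ to 3′ on the gene's strand) and are shown because they hold ISR-type motifs in front of 4 of the 10 genes, next to the promoter of DDIT4, the gene with the largest DOX difference. All 10 genes were in the table, with 18 start sites. The window searched was the 250 bases before each start, on both strands. Capitals mark the match to TGATGNAA, the C/EBP-ATF response element bound by ATF4 and CHOP dimers, in the first 3 lines (on the other strand for CHAC1), and to TGACGTCA, the cAMP response element (CRE) bound by CREB and ATF proteins, in the fourth. In the DDIT4 line, capitals mark matches to CCACG, the short part of the ER stress element, on the other strand.

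ATF3 (1 of its 2 starts), chr1:212565205-212565234, plus strand: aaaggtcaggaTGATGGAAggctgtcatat
CHAC1, chr15:40953251-40953280, plus strand: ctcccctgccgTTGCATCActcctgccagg
ASNS (1 of its 2 starts), chr7:97872458-97872487, minus strand: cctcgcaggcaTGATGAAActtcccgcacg
PPP1R15A, chr19:48872352-48872381, plus strand: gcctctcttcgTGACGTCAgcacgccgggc
DDIT4, chr10:72273705-72273918, plus strand: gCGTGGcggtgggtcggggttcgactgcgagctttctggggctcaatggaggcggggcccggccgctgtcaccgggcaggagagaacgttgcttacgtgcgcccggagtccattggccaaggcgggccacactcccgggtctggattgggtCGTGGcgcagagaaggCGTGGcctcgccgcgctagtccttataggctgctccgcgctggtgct

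TGATGNAA was found for 3 of the 10 genes, in 3 of their 18 windows, against 3.14% of 35116 promoter windows of the same length. TGACGTCA was found for 1 gene, in 1 of 18 windows, against 1.65% of all windows. CCACG was found for 6 genes, in 9 of 18 windows, against 33.5% of all windows. The matching windows of TRIB3 overlap and hold the same site, and those of ATF4 overlap and hold the same sites, so windows are not independent counts. The share of all genes with a match was not computed. The motifs do not overlap each other in the stretches shown. The matches of CHAC1, ASNS and PPP1R15A lie at positions -209 to -202, -68 to -61 and -58 to -51 from their RefSeq starts, inside annotated GENCODE exons. A match is a description of the letters, and the 3 genes with TGATGNAA include none that passed the test for DOX in either line.

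With DOX, DDIT4 fell and PPP1R15A rose in both lines, TRIB3 fell in QGP-1 cells by a small amount, and the transcription factors ATF4, ATF5, ATF3 and DDIT3 did not pass the test in either. Calls rest on edgeR's quasi-likelihood test, with an adjusted p (Benjamini-Hochberg, over all genes tested) under 0.05 and no minimum fold change. In QGP-1 cells 2 of the 10 were called lower and 1 higher, where 17.7% of 15089 genes tested were called lower and 17.3% higher. In BON-1 cells 1 of 10 was called lower and 1 higher, where 18.3% of 14625 genes were called lower and 17.0% higher. These shares lie near or below the background in either direction. Without QGP-1 DOX replicate 1, a library that stands apart for ATF4, ATF5 and DDIT3 below, 3 of the 10 were called lower in QGP-1 cells. Over all genes 2614 of 15308 were lower in that fit. Without BON-1 vehicle replicate 3, 2 of the 10 were called lower and 2 higher in BON-1 cells. Of 14909 genes tested there, 2367 were lower and 2019 higher. Leaving out QGP-1 vehicle replicate 1 or 2, or DOX replicate 2 or 3, left 1 lower call. In those fits 1996 to 2269 of 15280 to 15381 genes were lower. The median log2 fold change of the 10 genes was -0.06 in QGP-1 cells, where that of all genes was -0.01, and -0.03 in BON-1 cells, where that of all genes was also -0.01.

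**Figure D1:**
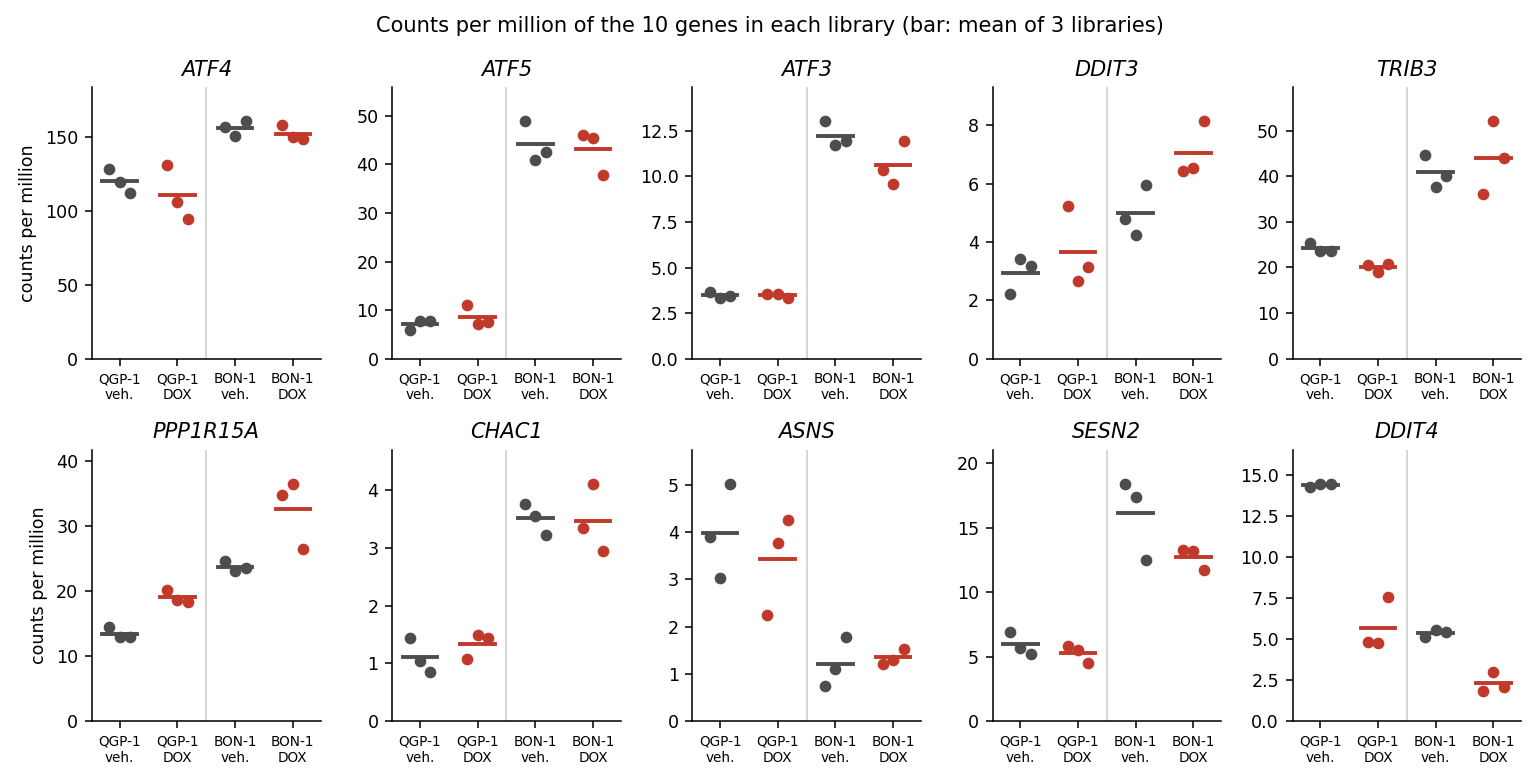
Level of each of the 10 genes in the 12 libraries, as counts scaled to the TMM-adjusted library size (CPM, vertical axis, starting at 0), with 1 point per library and a bar at the mean of the 3 libraries of a group, grey for vehicle and red for DOX. DDIT4 with DOX lay below vehicle and PPP1R15A above it in all 3 libraries of both lines, while ATF4, ATF5, ATF3, CHAC1, ASNS and SESN2 overlapped in both.

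MUC1, the target of the hairpin, checked the labels. It fell from 251 to 281 counts with vehicle to 32 to 41 with DOX in QGP-1 cells (log2 fold change -2.91, adjusted p = 8.24e-07) and from 281 to 580 to 23 to 78 in BON-1 cells (-2.79, adjusted p = 6.51e-11). The QGP-1 libraries summed to 38224144 to 50525926 counts, the BON-1 libraries to 15981954 to 28484324. Of 10 neuroendocrine markers, all were detected in QGP-1 cells, whereas in BON-1 cells ISL1 was at 0 in all 6 libraries and NCAM1 at 0 to 2 counts. Their summed level was 5853 to 6672 CPM with vehicle and 6608 to 7215 with DOX in QGP-1 cells, and 11708 to 15071 and 9224 to 9733 CPM in BON-1 cells. CHGA, which encodes the granule protein chromogranin A, fell in BON-1 cells (6535 to 9328 CPM with vehicle, 2705 to 3130 with DOX, log2 fold change -1.46), and the sum of the other 9 markers there was 5173 to 5743 CPM with vehicle and 6519 to 6603 with DOX. In BON-1 cells 3 of 8 markers tested were called lower and 2 higher, with SCG2 the most positive (0.45), and the lower count was 1 without vehicle replicate 1 or 3 and the higher count 1 without vehicle replicate 2. In QGP-1 cells 1 of 10 was lower, NCAM1 (-0.51), and 3 were higher, with ISL1 the most positive (0.42). Of 9 markers of immune, stromal and endothelial cells, the sum was 3.62 to 5.25 CPM with vehicle and 3.17 to 3.81 with DOX in QGP-1 cells, and 29.7 to 33.1 and 59.7 to 65.8 CPM in BON-1 cells. CD68, a lysosomal gene that many cell types also express, made up most of the BON-1 sum, at 23.7 to 26.3 CPM with vehicle and 48.5 to 52.6 with DOX, and LUM, which encodes a matrix proteoglycan of fibroblasts, also rose, from 4.72 to 6.03 CPM to 10.2 to 11.1 (log2 fold change 1.01, edgeR adjusted p = 6.20e-05). These were the 2 of 4 called higher there, with 0 lower. PTPRC, the general leukocyte marker, was at 0 to 4 counts. In QGP-1 cells 1 of 3 tested was lower, COL1A1, a fibroblast collagen (-1.16), a call lost without vehicle replicate 2, and 0 were higher. The part of these markers in the results was not tested.

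DDIT4, also called REDD1, encodes an inhibitor of mTORC1 that rises with ATF4, hypoxia and glucocorticoids, and lies on chromosome 10 at 72273919 to 72276036 (GRCh38). It was the gene with the largest difference among the 10. In QGP-1 cells its level was 14.3, 14.4 and 14.5 CPM in the 3 vehicle libraries and 4.83, 4.74 and 7.55 CPM with DOX. BON-1 cells held 5.15, 5.59 and 5.45 CPM with vehicle and 1.86, 3.02 and 2.09 CPM with DOX. Every DOX library lay below every vehicle library of its line, and the BON-1 vehicle level was close to the QGP-1 level with DOX. DDIT4 was 2.52-fold lower with DOX in QGP-1 cells (log2 fold change -1.34, SE 0.16, n = 3 per group, edgeR adjusted p = 3.83e-05) and 2.31-fold lower in BON-1 cells (-1.20, SE 0.25, adjusted p = 0.000408). The BON-1 values rest on 98 to 145 counts with vehicle and 29 to 58 with DOX. On the deposited TPM scale the log2 fold change was -0.45 in QGP-1 and -1.02 in BON-1 cells, still called lower by limma, and in QGP-1 cells -1.05 relative to the median gene, which this scale moved by 0.59. In BON-1 cells, where the median moved by -0.31, it was -0.70 relative to it. DDIT4 is in a list of mTORC1 genes lower in both lines that the study drew from these libraries, so its direction is no independent evidence. In such bulk libraries fewer expressing cells and less RNA per cell cannot be told apart.

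SESN2, or sestrin 2, is the other brake on mTORC1 among the 10, a leucine sensor that ATF4 and p53 induce. Its level in QGP-1 cells was 6.95, 5.67 and 5.24 CPM with vehicle and 5.83, 5.53 and 4.53 CPM with DOX, and the groups overlapped. In BON-1 cells the level was 18.4, 17.4 and 12.5 CPM with vehicle and 13.3, 13.2 and 11.7 CPM with DOX, so that 1 vehicle library, replicate 3, lay among the DOX libraries. The log2 fold change was -0.17 (SE 0.17, edgeR adjusted p = 0.477) in QGP-1 cells and -0.35 (SE 0.15, adjusted p = 0.0735) in BON-1 cells, and neither was called. Without BON-1 vehicle replicate 3, SESN2 was called lower in BON-1 cells (log2 fold change -0.50, adjusted p = 0.0138).

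PPP1R15A encodes GADD34, which brings protein phosphatase 1 to eIF2 and so closes the ISR loop, and lies on chromosome 19 at 48872212 to 48876059. Its level in QGP-1 cells was 14.5, 13.0 and 13.0 CPM with vehicle and 20.2, 18.6 and 18.4 CPM with DOX. In BON-1 cells it was 24.7, 23.1 and 23.6 CPM with vehicle and 34.9, 36.6 and 26.5 CPM with DOX. All DOX libraries were above all vehicle libraries in both lines, with BON-1 DOX replicate 3 the closest to vehicle. The gene was 1.42-fold higher with DOX in QGP-1 cells (log2 fold change 0.51, SE 0.10, edgeR adjusted p = 0.00170) and 1.37-fold higher in BON-1 cells (0.45, SE 0.12, adjusted p = 0.00303). On the TPM scale the QGP-1 difference was 0.96, or 0.36 above the median gene, and the BON-1 difference was 0.07 (limma adjusted p = 0.929), or 0.38 above the median gene.

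TRIB3, a pseudokinase that is induced by ATF4 and CHOP and restrains both, gave a smaller difference. In QGP-1 cells it was at 25.4, 23.6 and 23.7 CPM with vehicle and 20.6, 18.9 and 20.8 CPM with DOX, with no overlap. The BON-1 levels were 44.7, 37.7 and 40.0 CPM with vehicle and 36.0, 52.1 and 44.1 CPM with DOX, with DOX libraries both below and above vehicle. TRIB3 fell 1.20-fold in QGP-1 cells (log2 fold change -0.27, SE 0.09, edgeR adjusted p = 0.0377) and had a log2 fold change of 0.11 (SE 0.11, adjusted p = 0.463) in BON-1 cells. The QGP-1 call was kept in only 2 of 6 fits that left out 1 library, and was lost without vehicle replicate 1 (adjusted p = 0.122), vehicle replicate 2 (0.0778), DOX replicate 2 (0.149) or DOX replicate 3 (0.0603). On the TPM scale TRIB3 in QGP-1 cells was at 0.37, or -0.22 relative to that median.

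ATF4, the central transcription factor of the ISR, lies on chromosome 22 at 39519695 to 39522683 and was the most abundant of the 10. Its level in QGP-1 cells was 128, 119.9 and 112 CPM with vehicle and 131, 106 and 94.8 CPM with DOX. The BON-1 levels were 157, 151 and 161 CPM with vehicle and 159, 151 and 149 CPM with DOX. The groups overlapped in both lines. The log2 fold change was -0.12 (95% interval -0.34 to 0.10, edgeR adjusted p = 0.396) in QGP-1 cells and -0.03 (-0.19 to 0.12, adjusted p = 0.757) in BON-1 cells. DOX replicate 1 was the highest QGP-1 library, and without it ATF4 was called lower (-0.25, adjusted p = 0.0289). GENCODE lists 4 ATF4 pseudogenes, and the treatment of reads with several matches is not given in the sources used here.

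ATF5, a relative of ATF4 that is also controlled at translation and is linked to mitochondrial stress, was at 5.82, 7.84 and 7.68 CPM with vehicle and 11.1, 7.10 and 7.60 CPM with DOX in QGP-1 cells. BON-1 cells held 48.9, 40.9 and 42.6 CPM with vehicle and 46.1, 45.4 and 37.7 CPM with DOX. QGP-1 DOX replicate 1 stood above the other 5 libraries of the line, and all other values overlapped. The log2 fold change was 0.27 (SE 0.18, edgeR adjusted p = 0.263) in QGP-1 cells and -0.04 (SE 0.10, adjusted p = 0.796) in BON-1 cells.

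ATF3, an early stress-induced factor downstream of ATF4, varied little in QGP-1 cells, at 3.65, 3.33 and 3.46 CPM with vehicle and 3.52, 3.57 and 3.35 CPM with DOX. In BON-1 cells it was at 13.0, 11.8 and 11.9 CPM with vehicle and 10.3, 9.57 and 11.96 CPM with DOX, where DOX replicate 3 lay within the vehicle range. The log2 fold change was 0.00 (SE 0.18, edgeR adjusted p = 0.994) in QGP-1 cells and -0.21 (SE 0.15, adjusted p = 0.312) in BON-1 cells.

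DDIT3 encodes CHOP, the factor tied to cell death under prolonged ER stress. In QGP-1 cells it was at 2.20, 3.40 and 3.17 CPM with vehicle and 5.22, 2.66 and 3.14 CPM with DOX, so that DOX replicate 1 alone lay above the vehicle libraries. The BON-1 levels were 4.79, 4.26 and 5.95 CPM with vehicle and 6.42, 6.55 and 8.14 CPM with DOX, and here all 3 DOX libraries were above vehicle. The log2 fold change was 0.33 (SE 0.26, edgeR adjusted p = 0.357) in QGP-1 cells, and -0.01 without DOX replicate 1. In BON-1 cells it was 0.50 (SE 0.20, adjusted p = 0.0561), which missed the threshold, and it was called without vehicle replicate 3 (0.63, adjusted p = 0.0392). In the GENCODE annotation 27.2% of the DDIT3 exon bases are shared with MARS1 on the opposite strand, and 19.5% of those of ATF5 with NUP62. Whether reads were counted by strand is not given in the sources used here, so both genes are uncertain to that extent.

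CHAC1, a glutathione-degrading enzyme induced by ATF4 and CHOP, was low. It was at 1.44, 1.04 and 0.844 CPM with vehicle and 1.08, 1.50 and 1.44 CPM with DOX in QGP-1 cells, from 42 to 62 counts per library. The BON-1 levels were 3.76, 3.55 and 3.22 CPM with vehicle and 3.34, 4.11 and 2.95 CPM with DOX. The groups overlapped in both lines. The 95% intervals of the log2 fold change were wide, from -0.44 to 0.99 in QGP-1 cells (edgeR adjusted p = 0.561) and from -0.54 to 0.50 in BON-1 cells (adjusted p = 0.955).

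ASNS, asparagine synthetase, is a classical ATF4 target in amino acid shortage. It was at 3.91, 3.03 and 5.02 CPM with vehicle and 2.24, 3.78 and 4.25 CPM with DOX in QGP-1 cells, and at 0.746, 1.11 and 1.78 CPM with vehicle and 1.22, 1.30 and 1.53 CPM with DOX in BON-1 cells. BON-1 libraries held only 19 to 32 counts. The log2 fold change was -0.23 (SE 0.25, edgeR adjusted p = 0.520) in QGP-1 cells and 0.19 (SE 0.43, adjusted p = 0.768) in BON-1 cells, and neither was called. In QGP-1 cells, with 108 to 250 counts per library, the groups overlapped, as they did in BON-1 cells. The ASNS counts are uncertain for another reason. GENCODE has a long noncoding gene on the same strand whose exons share 49.3% of the ASNS exon bases. In RefSeq 91.0% of those bases lie inside the span, introns included, of a long noncoding gene, CZ1P-ASNS, whose own row holds 0 to 5 counts. Reads that fall on both genes may have been left out, and how they were counted is not given in the sources used here.

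**Figure D2:**
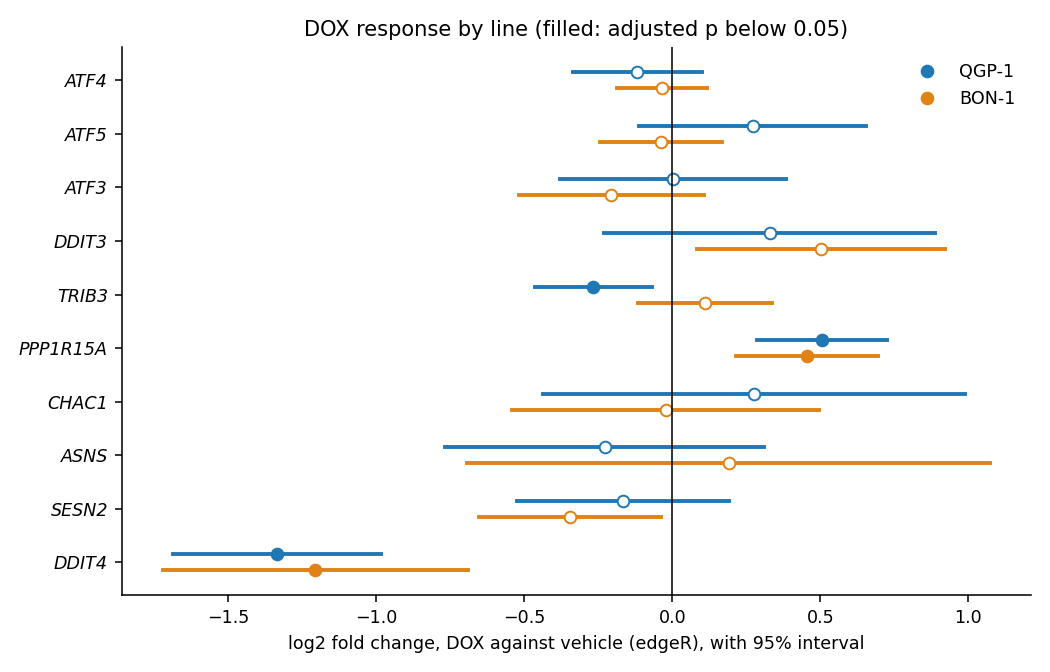
Log2 fold change of DOX against vehicle (horizontal axis) with its 95% interval for each of the 10 genes, QGP-1 in blue and BON-1 in orange, filled where the adjusted p was below 0.05. DDIT4 lies near -1.3 and PPP1R15A near 0.5 in both lines, TRIB3 is filled in QGP-1 cells alone, and the other intervals include or come close to 0.

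The response to DOX was then compared between the lines by an interaction term, fitted with edgeR to all 12 libraries and 16598 genes at once. None of the 10 genes was called, where 7.92% of all genes were more negative in BON-1 cells and 8.80% more positive. DESeq2 also called 0 of 10, where 1659 of all 16598 genes were more negative in BON-1 cells and 1661 more positive. In edgeR 1 of 10, TRIB3, had an unadjusted p under 0.05. For DDIT4 the difference (BON-1 minus QGP-1) was 0.14 on the log2 scale, with a 95% interval from -0.45 to 0.74. For PPP1R15A it was -0.04, from -0.38 to 0.29. For TRIB3 it was 0.39, from 0.05 to 0.72 (edgeR adjusted p = 0.104), and it was called without BON-1 DOX replicate 1 (0.49, adjusted p = 0.0324). A difference between the lines is therefore not shown for any of the 10 with all libraries, while the intervals leave room for differences of moderate size.

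The vehicle levels of the 10 genes differed between the lines, and all 10 passed the test, 8 higher in BON-1 cells and 2 lower, where 37.5% of all genes were called higher and 37.5% lower. ATF5 was 5.87-fold higher in BON-1 cells (log2 difference 2.55, SE 0.15, edgeR adjusted p = 8.10e-14), ATF3 3.34-fold and CHAC1 3.02-fold. SESN2 was 2.58-fold higher. PPP1R15A (0.74), DDIT3 (0.68), TRIB3 (0.68) and ATF4 (0.30) had smaller positive log2 differences. ASNS was 3.59-fold lower (-1.84, SE 0.33, adjusted p = 1.80e-05) and DDIT4 2.82-fold lower (-1.50, SE 0.19, adjusted p = 9.57e-08) in BON-1 cells. The ASNS difference rests on 21 to 32 counts in the BON-1 vehicle libraries and is uncertain for the overlap with noncoding genes given above. Sequencing depth also differed between the lines, and the line and anything that was handled with it cannot be told apart.

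**Figure D3:**
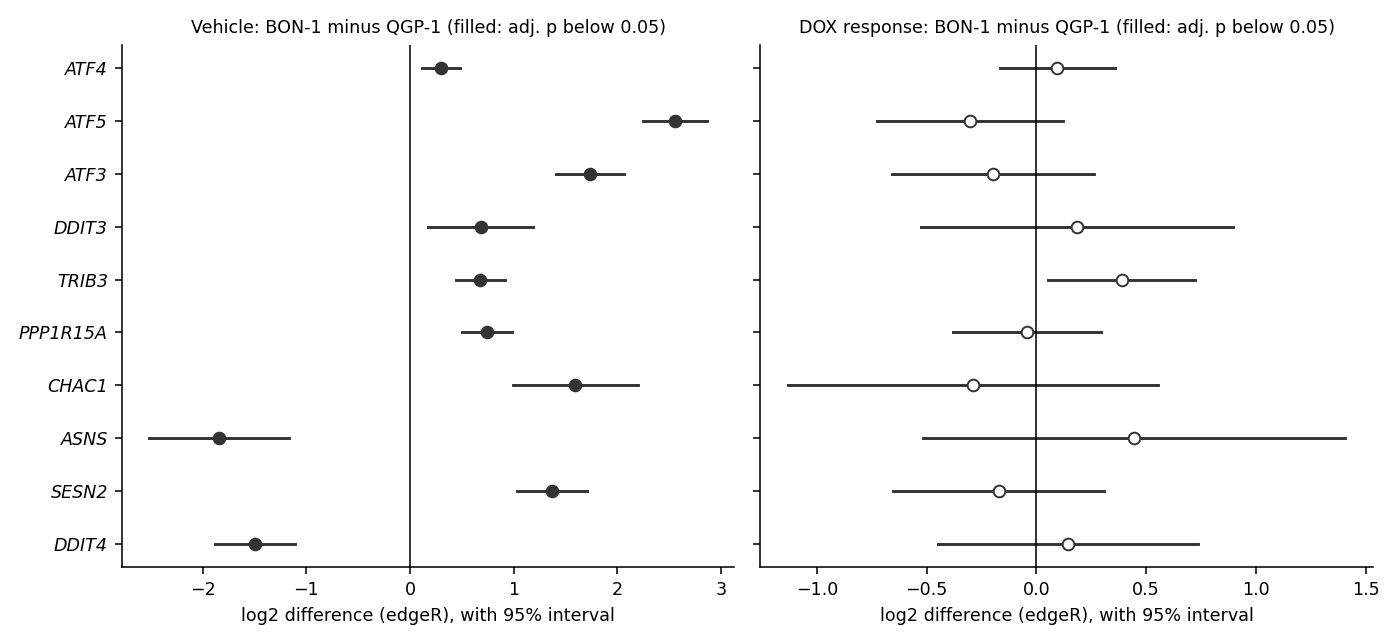
Left, log2 difference of the vehicle levels, BON-1 minus QGP-1; right, log2 difference of the DOX responses, BON-1 minus QGP-1, each with its 95% interval and filled where the adjusted p was below 0.05. All 10 points are filled on the left, from -1.84 for ASNS to 2.55 for ATF5, and none on the right.

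Levels can be compared between genes only per length, on the deposited TPM scale, and within a library, because 3 small noncoding RNAs (RN7SK, RN7SL1 and RN7SL2) take a large and unequal part of it, from 50.9% to 80.3% of a library. With vehicle in QGP-1 cells ATF4 led at 24.3 TPM (SD 3.42, n = 3), followed by DDIT4 at 3.46, TRIB3 at 3.27, PPP1R15A at 2.26, DDIT3 at 1.15 and ATF5 at 1.07 TPM. SESN2 at 0.649, ATF3 at 0.541, ASNS at 0.511 and CHAC1 at 0.253 TPM closed the order. Within each of the 3 libraries every gene lay above the next in this order, except that DDIT3 lay above ATF5, and ATF3 above ASNS, in 2 of 3. DDIT4 and TRIB3 were close, and their ranges over the libraries overlapped. In BON-1 cells ATF4 led at 78.4 TPM (SD 14.0, n = 3), followed by ATF5 at 16.5, TRIB3 at 13.6 and PPP1R15A at 9.89 TPM. DDIT3, ATF3, SESN2 and DDIT4 lay at 4.87, 4.71, 4.34 and 3.25 TPM, above CHAC1 at 1.96 and ASNS at 0.395 TPM. Here DDIT3 lay above ATF3 in 1 of 3 libraries and ATF3 above SESN2 in 2 of 3, and every other gene above the next in 3 of 3. With DOX the second place in QGP-1 cells went from DDIT4 to PPP1R15A, at 5.33 TPM, which lay above TRIB3 in 3 of 3 libraries. DDIT4 was then at 2.31 and DDIT3 at 2.36 TPM, with DDIT3 the higher in 1 of 3 libraries. The place of ASNS in either line is uncertain for the overlap with noncoding genes given above.

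For all counts by list, the markers above included, the shares of all genes are the measure. These were 17.7% lower and 17.3% higher in QGP-1 cells, and 18.3% and 17.0% in BON-1 cells. Counts near these shares are no result about a list. Of the paralogs of the 10 genes, 3 of 6 tested in QGP-1 cells were called higher and 1 lower. In BON-1 cells 3 of 7 were called higher and none lower by edgeR. TRIB1, which like TRIB3 is a Tribbles pseudokinase, rose in both lines (log2 fold change 0.51 in QGP-1 and 0.67 in BON-1 cells), and TRIB2 rose in QGP-1 cells (0.33) and was at 0.18 (edgeR adjusted p = 0.0687) in BON-1 cells. PPP1R15B, the constitutive partner of the eIF2 phosphatase, rose by little in both (0.24 and 0.20). SESN1, a p53-induced sestrin, fell in QGP-1 cells (-0.52) and was at 0.06 in BON-1 cells, and this difference between the lines was itself called (0.59, edgeR adjusted p = 0.0402). SESN3 was at 0.08 and -0.17 and CHAC2 at -0.01 and -0.08, with no call. DDIT4L, the paralog of DDIT4, passed the filter in BON-1 cells alone and was higher with DOX there (1.32, SE 0.40, edgeR adjusted p = 0.0113). When 1 library was left out, 1 to 2 paralogs were called higher in BON-1 cells, below the 3 with all libraries. The lower count there was 0 to 1. In QGP-1 cells such fits gave 2 to 3 higher calls and 1 lower call.

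Around the 10 genes, 22 genes of the upstream machinery were tested in both lines (eIF2 kinases, eIF2 and eIF2B subunits, phosphatase subunits and regulators). In QGP-1 cells 7 were called lower and 3 higher. OMA1, the mitochondrial protease that relays stress to the ISR, had the most negative log2 fold change (-0.79), and DNAJC3, an inhibitor of the eIF2 kinases, the most positive (0.47). In BON-1 cells 2 were called lower and 3 higher, from EIF2AK2, which encodes PKR (-0.73), to EIF2AK4, which encodes GCN2 (0.32). When 1 library was left out, 3 to 6 were called lower and 2 to 3 higher in QGP-1 cells. In BON-1 cells such fits gave 1 to 3 lower and 1 to 2 higher. The 7 lower calls in QGP-1 cells and the 3 higher calls in BON-1 cells were thus reached only with all libraries. EIF2AK3, which encodes PERK, was called higher in QGP-1 cells (0.44, edgeR adjusted p = 0.00040). In BON-1 cells it was not called (-0.11, adjusted p = 0.374). EIF2AK3 was chosen for mention after its values were seen, and a call in 1 line alone does not show a difference between the lines.

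Among bZIP factors that pair with or resemble ATF4, 4 of 20 tested were lower and 6 higher in QGP-1 cells, from JDP2, a repressor of AP-1 (-1.43), to CREB3L2, an ER-anchored factor (0.70). In BON-1 cells 4 of 19 were lower and 3 higher, from BATF3 (-1.10) to CEBPD (0.54). When 1 library was left out, 2 to 3 were lower in QGP-1 cells, below the 4 with all libraries. The BON-1 higher count went to 0 without vehicle replicate 2 and to 1 without vehicle replicate 3 or DOX replicate 3.

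Further ATF4 targets were counted in lists set by function. Of 11 genes of serine, glycine, proline and related amino acid synthesis, 7 were lower and 2 higher in QGP-1 cells, and 5 lower and 0 higher in BON-1 cells. PHGDH, the first enzyme of serine synthesis, fell the most in both (log2 fold change -0.96 and -1.17), and GPT2, an alanine transaminase, had the most positive call in QGP-1 cells (0.37). The median of this list was -0.31 in QGP-1 and -0.00373 in BON-1 cells, where that of all genes was -0.01 in both. The lower count was 4 without QGP-1 vehicle replicate 1, and 5 in all 6 such fits of BON-1 cells. The QGP-1 higher count was 1 without vehicle replicate 2 or 3 or DOX replicate 2, and the BON-1 higher count was 1 without vehicle replicate 1. Serine synthesis genes are among those the study names from these libraries, as are some genes of the lists below. The direction of such genes is no independent evidence. The amino acid transporters were mixed, with 2 of 9 lower and 3 higher in QGP-1 cells and 4 of 9 lower and 2 higher in BON-1 cells. SLC7A11, the cystine importer, had the most positive call in both lines (0.56 and 0.82) and SLC43A1, a leucine transporter, the most negative (-0.49 and -0.51). In QGP-1 cells the lower count of transporters was 0 without vehicle replicate 1 and 1 without vehicle replicate 2, DOX replicate 1 or DOX replicate 3, and the higher count was 5 without DOX replicate 3. Of 13 genes of tRNA handling, the aminoacyl-tRNA synthetases and XPOT, which encodes the tRNA exporter exportin-T, 1 was lower and 1 higher in QGP-1 cells, and 4 were lower and 0 higher in BON-1 cells. WARS, for tryptophan, which interferon also induces, fell the most in both lines (-0.88 and -1.43), and GARS was the one higher call (0.25 in QGP-1 cells). Like DDIT4, WARS is in the study's list of mTORC1 genes lower in both lines. The BON-1 lower count was 2 without vehicle replicate 1 or 3, or DOX replicate 2.

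Among other ATF4 and CHOP targets, 7 of 20 were lower and 4 higher in QGP-1 cells. In BON-1 cells 4 of 19 were lower and 4 higher. JDP2, which is in the bZIP list too, had the most negative call in QGP-1 cells (-1.43). Some genes, GDF15 among them, are counted in more than 1 list. GDF15, a secreted stress hormone, fell in QGP-1 cells (log2 fold change -0.82) and rose in BON-1 cells (1.60), a difference between the lines of 2.42 (SE 0.13, edgeR adjusted p = 1.91e-11). SQSTM1, which encodes the autophagy receptor p62, was the most positive call in QGP-1 cells (0.39) and rose in BON-1 cells too (0.89). INHBE, an activin subunit, was the most negative in BON-1 cells (-0.80). The QGP-1 higher count was 2 without vehicle replicate 1 or 2, or DOX replicate 3.

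Some genes of the ER differed between the lines in their response. Of the ER chaperone and ER-associated degradation genes, 2 of 24 were lower and 6 higher in QGP-1 cells, and 9 of 23 lower and 1 higher in BON-1 cells. ERN1, which encodes the sensor IRE1, rose in QGP-1 cells (0.72) and XBP1, its target, fell (-0.32). SDF2L1 fell the most in BON-1 cells (-0.83), and DNAJB9 was the one higher call there (0.30). HSPA5, which encodes the chaperone BiP and was chosen for mention after its values were seen, rose in QGP-1 cells (0.57) and fell in BON-1 cells (-0.37). In the test of the difference, 8 of 24 genes of the list were more negative in BON-1 cells and 0 more positive. Over all 16598 genes tested, 7.92% were more negative and 8.80% more positive. The counts ranged over 2 to 3 lower and 4 to 6 higher in QGP-1 cells, and 8 to 10 lower and 0 to 1 higher in BON-1 cells, when 1 library was left out.

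**Figure D4:**
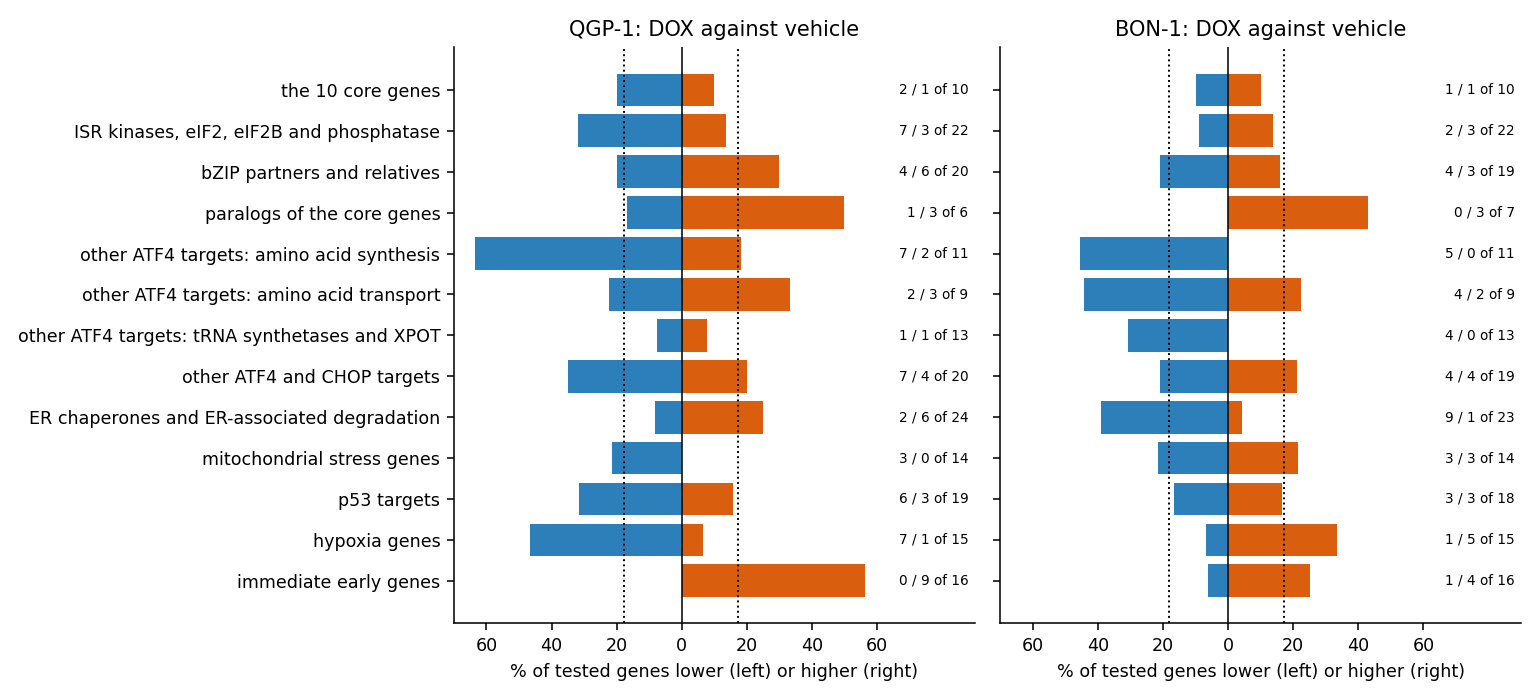
Share of the genes tested in each list that were called lower (blue, to the left) or higher (orange, to the right) with DOX in QGP-1 (left) and BON-1 cells (right); the numbers give lower / higher of tested, and dotted lines mark the shares of all genes tested. The 10 core genes lie near or under the dotted lines, amino acid synthesis genes extend to the left in both lines, and ER chaperones and hypoxia genes extend to opposite sides in the 2 panels.

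DDIT4 is also a known target of HIF-1, the hypoxia factor, and of p53, so genes of these pathways and immediate early genes were counted as well. Of hypoxia genes, 7 of 15 were lower and 1 higher in QGP-1 cells, from EGLN3 (-1.44) to PFKFB3 (0.31). In BON-1 cells 1 of 15 was lower, CA9 (-0.73), and 5 were higher, with ADM the most positive (1.05). In the test of the difference, 10 of 16 were more positive in BON-1 cells and 1 more negative. The shares of all genes were 8.80% more positive and 7.92% more negative. DDIT4 fell in both lines, and its difference between them was not called. The part of hypoxia or p53 in the fall of DDIT4 was not tested. The 1 higher call in QGP-1 cells was lost without vehicle replicate 2 or 3, or DOX replicate 2 or 3, and there were 2 lower calls in BON-1 cells without DOX replicate 2.

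Of p53 targets 6 of 19 were lower and 3 higher in QGP-1 cells, from TP53INP1 (-1.25) to TP53I3 (0.68), and 3 of 18 lower and 3 higher in BON-1 cells, from DDB2 (-0.84) to TNFRSF10B (0.45). When 1 library was left out, the lower count of p53 targets was 4 to 5 in QGP-1 cells, below the 6 with all libraries. Their higher count in BON-1 cells was then 1 to 2, below 3. Of immediate early genes 9 of 16 rose and 0 fell in QGP-1 cells, with FOSB the most positive (1.39), and 4 rose and 1 fell in BON-1 cells, from IER2 (-0.41) to FOSL1 (0.79). The QGP-1 count ranged from 7 to 10 when 1 library was left out, and the fall of IER2 was lost without BON-1 vehicle replicate 2 or DOX replicate 3. Of mitochondrial stress genes 3 of 14 fell and 0 rose in QGP-1 cells, with GDF15 the lowest, and 3 fell and 3 rose in BON-1 cells, from PCK2 (-0.72) to GDF15. Leaving out 1 library gave 1 to 2 higher calls of mitochondrial stress genes in BON-1 cells, below the 3 with all libraries.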

How the data were processed

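The authors prepared stranded mRNA libraries, aligned reads with STAR to GRCh38 and deposited raw counts per gene and TPM values for each line; the counting program, strand setting and treatment of reads matching several places are not given in the sources used here. Each column was assigned to a library by its label, with 0 columns left over. The 10 genes and all lists were chosen with earlier results of these data known. The test was that of edgeR 4.0.16, run in R 4.3.3 (default filter, TMM, quasi-likelihood test, Benjamini-Hochberg), 3 against 3 libraries in a line, and with all 12 libraries for the differences between lines. CPM values are counts scaled to the TMM-adjusted library size over the genes that passed the filter. The code was tested on simulated counts. Genes named were the 10, MUC1, the paralogs tested and, for each list and line, markers included, the most positive and most negative called gene. HSPA5, EIF2AK3, CD68 and PTPRC were added after their values were seen. Alternatives were DESeq2 1.42.0, library size, upper quartile, no filter, at least 10 counts in each library, a replicate block, a joint fit of both lines, an absolute log2 fold change of at least 0.5, limma 3.58.1 on log2(TPM + 1) where the mean TPM reached 1, and leaving out each library; leaving out libraries for the lists was added after seeing the data. Positions and overlaps come from GENCODE v44 (GRCh38), and promoters from RefSeq. A pair of replicates differed by a chi-square per gene of 5.92 to 29.7, so none was counted as a copy.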

Additional observations from a re-analysis of the deposited data

Results flagged for a closer look

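None of the 10 core genes met a rule for a closer look. Among 47 genes named from the lists around them (EIF2AK3, CD68 and PTPRC left out), the DOX response differed between the lines for 20, tested by the edgeR interaction term with Benjamini-Hochberg adjustment over all genes. Most of these 47 had been named because they were the most positive or most negative called gene of a list in 1 line, so this share is not set against that of all genes. All values that follow are log2 differences, BON-1 minus QGP-1.

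GDF15 differed by 2.42, and TNFRSF10B, a death receptor gene induced by CHOP and p53, by 0.83 (edgeR adjusted p = 7.63e-05), with a fall in QGP-1 cells (-0.37) and a rise in BON-1 cells. SQSTM1, which rose in both lines, differed by 0.52. Of the upstream machinery, OMA1 differed by 0.91, EIF2AK4 by 0.34, EIF2AK2 by -0.76 and DNAJC3 by -0.56. Of ER genes, HSPA5 differed by -0.93 (edgeR adjusted p = 9.96e-06) and ERN1 by -0.65. Of bZIP factors, BATF3 differed by -1.06 and CREB3L2 by -0.47. WARS, lower in both lines, differed by -0.54. Of hypoxia genes, EGLN3 differed by 1.38, ADM by 1.11 and CA9 by 3.37, where CA9 did not pass the filter on low counts in QGP-1 cells alone and its interval was wide, from 1.07 to 5.67. Of p53 targets, SESN1 differed by 0.59, TP53INP1 by 0.74 and TP53I3 by -0.60. IER2, an immediate early gene, rose in QGP-1 cells (0.35) and fell in BON-1 cells, a difference of -0.75. CHGA, a neuroendocrine marker, differed by -1.60 (edgeR adjusted p = 4.82e-08), with a fall in BON-1 cells and no call in QGP-1 cells (0.15). The causes of these differences were not tested.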

How the results depend on the processing

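DDIT4 was called lower and PPP1R15A higher in 6 of 6 fits without 1 library in each line, DDIT4 at -1.59 to -1.22 in QGP-1 and -1.45 to -1.09 in BON-1 cells, PPP1R15A at 0.47 to 0.56 and 0.35 to 0.57. The count of QGP-1 genes called lower was 1 in place of 2 with library size, with no filter, with both lines in 1 fit, with an absolute log2 fold change of at least 0.5 and with limma on TPM, each time without TRIB3 (edgeR adjusted p = 0.0507 with library size, 0.0715 with no filter and 0.0793 in 1 fit). Over all genes the lower calls in these settings were, in turn, 2487 of 15089, 2808 of 22389, 2612 of 16598, 1296 of 15089 and 91 of 10561. With the minimum fold, BON-1 genes called higher were 0 (1059 of all 14625), and with no filter BON-1 genes called lower were 2 (2937 of all 20554), with SESN2 added. With limma on TPM, 5 of the 6 genes tested in QGP-1 cells were called higher, where 9166 of all 10561 genes tested were. In BON-1 cells 0 of 9 were called higher, where 29 of all 11954 genes were. ATF4 (0.59) and TRIB3 (0.37) in QGP-1 and TRIB3 (-0.24) in BON-1 cells reversed. On this scale the median of all genes moved by 0.59 and -0.31, and ATF4 in QGP-1 cells was at -0.01 relative to it. Low genes were not tested there. ATF3 in QGP-1 cells was at -0.0271 with the upper quartile. Without 1 library, counts ranged over 1 to 3 (QGP-1 lower), 1 to 2 (BON-1 lower), 1 to 2 (BON-1 higher) and 0 to 1 (difference between lines, more positive). Over all genes the same counts were, in turn, 1996 to 2614, 2194 to 2577, 1908 to 2196 and 1076 to 1359, of 14864 to 17127 genes tested. Directions that turned without 1 library were ATF3 (-0.0281 to 0.0363), DDIT3 (-0.00918 to 0.51) and ASNS (-0.42 to 0.0148) in QGP-1 cells; ATF5 (-0.0988 to 0.0417), CHAC1 (-0.17 to 0.0679), ASNS (-0.0830 to 0.54) and TRIB3 (-0.0337 to 0.23) in BON-1 cells; and the differences between lines of DDIT4 (-0.14 to 0.40), ATF4 (-0.00661 to 0.18) and PPP1R15A (-0.18 to 0.0719); none of these was called with all libraries. The causes were not tested. In their deviations from the group mean, same-numbered libraries correlated at -0.02 to 0.05 in QGP-1 and -0.04 to 0.07 in BON-1 cells. Libraries of different number correlated at -0.13 to 0.09 and -0.05 to 0.08. A pairing by number is not shown, but with 3 libraries per group these values cannot exclude one. With the replicate number as a block the counts stayed at 2 lower and 1 higher in QGP-1 cells. In BON-1 cells they stayed at 1 and 1 (DDIT4 at -1.36 and -1.23 in the 2 lines). ASNS in BON-1 cells (19 to 32 counts a library) and CHAC1 in QGP-1 cells (42 to 62) had the fewest counts of the 10 in their line, and the part of depth in their wide intervals was not tested.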
